A study of Mus musculus with 30 samples.

Results

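The 40 genes described here are interferon response genes of the mouse, and their RNA was sequenced from the colon of C57BL/6J animals. They were listed by name from what is known of the interferon response, by a rule that uses no measured value but was written with earlier results of these data known, and all 40 were found among the 46078 genes of the count table. The mice formed 5 groups of 6 animals, with 1 library per animal: females on control diet (CD F), males on control diet (CD M), females on high fat diet (HFD F), males on high fat diet (HFD M), and males on high fat diet given estrogen (HFD+E2 M). The diets were given for 13 weeks. During the final 3 weeks every animal had 9 intraperitoneal injections, which held vehicle in the first 4 groups and 0.5 mg per kg body weight of E2 in the last, so E2 was given to males on HFD and to no other group. The labels give no age and no batch, and the tissue (colon in the labels, distal colon in the study's methods) was not sorted, so that fewer cells of a type and less RNA per cell cannot be told apart.

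Interferons are secreted proteins that cells release on sensing foreign or misplaced nucleic acids. They bind receptors coupled to the Janus kinases, which activate transcription factors. A complex that holds Stat2 and Irf9 binds a DNA element called the interferon-stimulated response element (ISRE), and the gamma-activated site (GAS) is the element known from the response to interferon gamma. The genes that follow include sensors of nucleic acids, proteins that block viral RNA or protein synthesis, GTPases that act on intracellular microbes, and parts of the machinery that presents peptides to T cells. In the gut, a low level of this response is present without infection and is known to depend on the microbiota.

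By role, the 40 genes comprised 4 of signalling and transcription (Irf1, Irf7, Irf9, Stat2), the ubiquitin-like modifier Isg15 with Usp18, the protease that removes it, 4 sensors (Ddx58, Ifih1, Dhx58, Zbp1), 4 genes of the IFIT family, 6 of the oligoadenylate synthetase (OAS) family, 11 other antiviral effectors, 6 interferon-inducible GTPases and 3 of antigen processing (Tap1, Psmb8, Psmb9). Several lie in clusters. On the mouse build GRCm38, the 4 IFIT genes are on chromosome 19, Gbp2, Gbp3 and Gbp7 on chromosome 3, and the 6 OAS family genes on chromosome 5, among them Oasl2 (chr5:114896936-114912234) next to Oasl1 (chr5:114923240-114937915). Irf7, the factor that amplifies the type I interferon response, is at chr7:141262706-141266481 on the minus strand, Ifit1 at chr19:34640871-34650009, and Rtp4, which encodes a receptor transporter protein with antiviral activity, at chr16:23609919-23614222.

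The sequence that links many of these genes is the ISRE, and its core was read in the RefSeq promoter windows of the same genome (GRCm38.p6), which run from 250 bases before to 50 bases after each annotated start. The core was searched as GAAANNGAAA on both strands (TTTCNNTTTC on the other). Of the 40 genes, 30 had a window, and 18 of these (60.0%) held the core, against 3.99% of the 27025 genes with a window. The stretches that follow are those of Ifit1 and Ifit3, whose levels differed between groups, and of Isg15, where the core is repeated. The pairs Ifit3 with Ifit3b and Oas1a with Oas1g are shown as well, as their stretches are near-identical. Each ISRE core, read on the gene's own strand, is in capitals, and overlapping cores run together.
Ifit1, chr19:34640773-34640825, plus strand: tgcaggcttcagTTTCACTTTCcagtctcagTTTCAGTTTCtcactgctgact
Ifit3, chr19:34583361-34583428, plus strand: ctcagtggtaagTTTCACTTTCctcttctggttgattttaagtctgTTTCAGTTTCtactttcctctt
Ifit3b, chr19:34607757-34607824, plus strand: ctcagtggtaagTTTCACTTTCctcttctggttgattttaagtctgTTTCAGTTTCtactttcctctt
Isg15, chr4:156200863-156200908, minus strand: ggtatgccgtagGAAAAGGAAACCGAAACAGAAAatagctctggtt
Oas1a, chr5:120907526-120907557, minus strand: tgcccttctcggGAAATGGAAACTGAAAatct
Oas1g, chr5:120887614-120887643, minus strand: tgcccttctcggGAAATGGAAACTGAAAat
Ifit1 had 2 separate cores, Isg15 had 3 that overlapped, and the 68 bases shown for Ifit3 and Ifit3b had 0 mismatches between them. Only these promoter stretches were compared, and not the transcripts. If the transcripts are as alike, reads may be divided between the copies by counting. The values of Ifit3 and Ifit3b, and of Oas1a and Oas1g, would then be uncertain for the single gene.

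Other members with a window had no core in it. Irf7, Oasl1 and Oasl2 each held 0 ISRE cores and 0 GAS cores (TTCNNNGAA, its own reverse complement), and the 60 bases before the start of the neighbours Oasl1 and Oasl2 are shown for comparison with the above.
Oasl1, chr5:114923180-114923239, plus strand: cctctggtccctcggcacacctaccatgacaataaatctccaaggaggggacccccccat
Oasl2, chr5:114896874-114896933, plus strand: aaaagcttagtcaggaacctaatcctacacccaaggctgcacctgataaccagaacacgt
A core that is missing from a window of 300 bases says nothing of sites elsewhere. The GAS core was found in the windows of 7 of the 30 genes (23.3%), which were Bst2, Gbp7, Ifit2, Igtp, Irf1, Oas1a and Psmb8, and in 9.55% of all genes with a window. For Oas2, Rtp4 and Zbp1 no window was matched.

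The libraries held from 8667177 to 17243712 counts on genes, and mitochondrial genes took 26.1% to 38.0% of them. All 7 colon epithelium markers checked were detected, with a summed level of 2868 to 5314 CPM (counts scaled to the size of the library, with TMM factors over the 30 libraries). Genes of stratified squamous epithelium, such as the keratin genes Krt5 and Krt14, stood apart in 6 libraries: replicates 1, 3, 4 and 5 of HFD F and replicates 2 and 4 of HFD M. Their summed level reached 1830 CPM in HFD F and 541.6 CPM in HFD M, against at most 16.4 CPM in the other 3 groups, so that each comparison of HFD groups is also given without these libraries.

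The 40 genes together took 459 to 784 CPM in each library. Levels between genes were compared as TPM, which is scaled to gene length. The highest mean over the 30 libraries was that of Irf1, a transcription factor induced by interferon gamma, with 46.3 ± 9.43 TPM (SD, n = 30). It was followed by Ifih1, the sensor of long double-stranded RNA, with 30.5 ± 6.52 TPM, by Parp14, an ADP-ribosyltransferase, with 20.6 ± 3.85 TPM and by Gbp2, a guanylate-binding protein, with 18.1 ± 6.49 TPM. Irf7 had 12.2 ± 2.78 TPM. The lowest means were those of Oas2, with 0.257 ± 0.197 TPM, and Oas3, with 0.198 ± 0.179 TPM, 2 of the enzymes that make the 2-5A signal for RNA decay. Thus the most abundant members exceeded the rarest by far more than the spread between animals. The levels of 4 genes rested on a median of 10 or fewer counts per library: Isg15 (4), Oas3 (5), Mx2 (10) and Usp18 (10). Counting error was widest for these 4. Ifi44 (10.5) and Oas2 (12) were close to this limit.

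The interferons themselves were close to or at 0. Of 10 ligand genes examined, Ifnb1, Ifne, Ifnk, Ifnl2, Ifnl3, Ifna1, Ifna4 and Ifna5 had no count in any library. Ifna2 reached at most 2 counts, in CD F, and Ifng at most 3 counts, also in CD F. The 6 receptor genes and the 8 genes of kinases and factors, by contrast, were detected in each group.

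**Figure D1:**
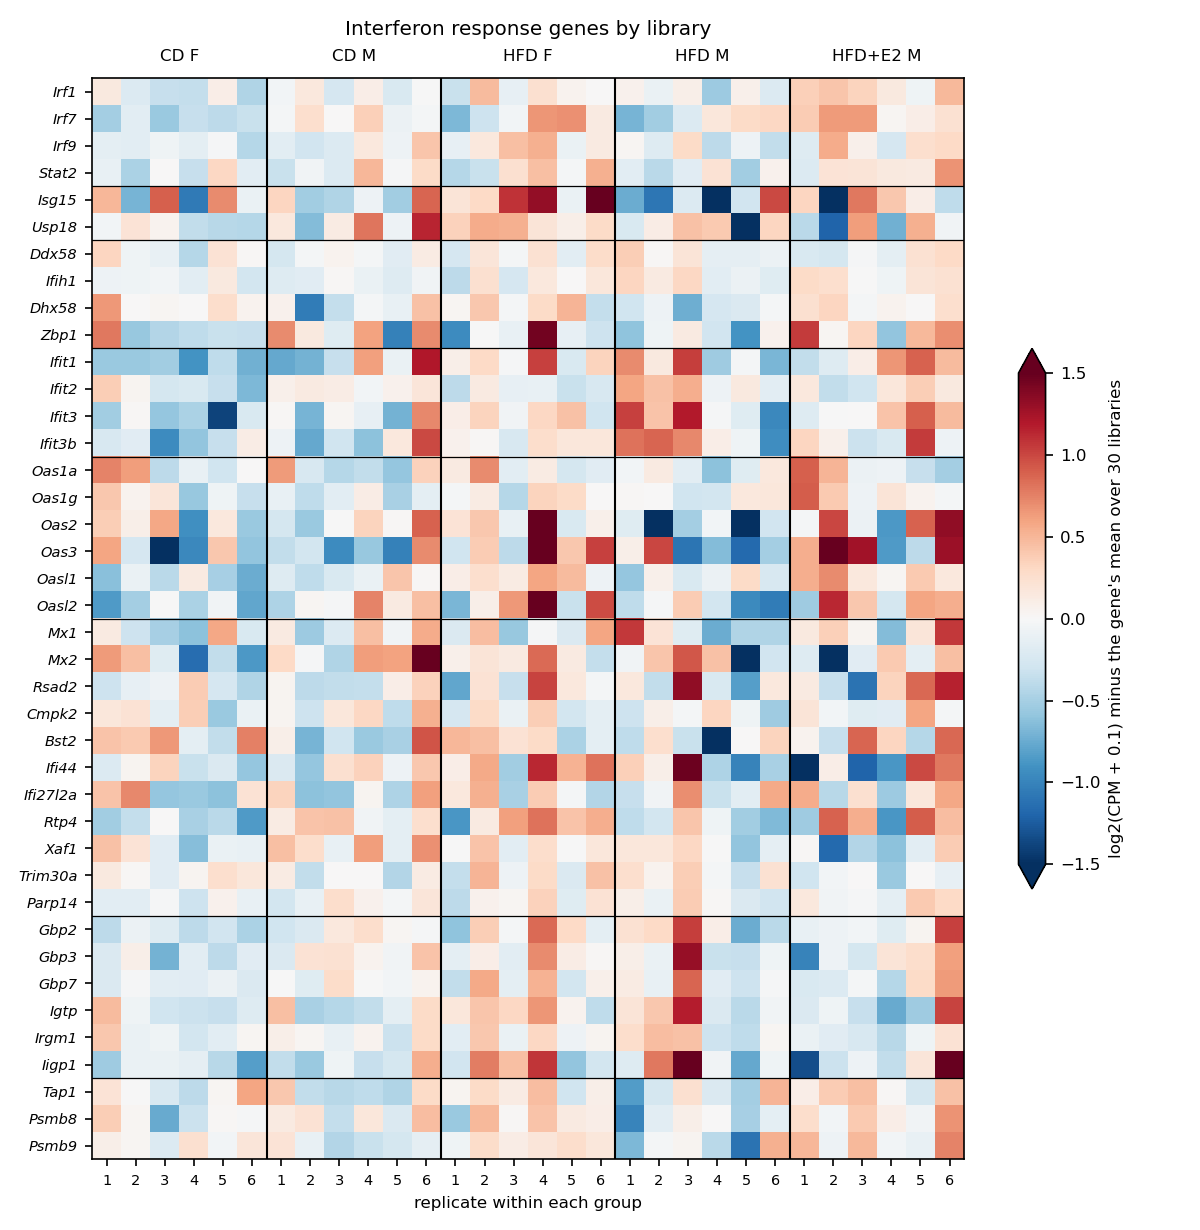
Level of each of the 40 interferon response genes (rows, grouped by role) in each of the 30 libraries (columns, replicates 1 to 6 of the 5 groups), as log2(CPM + 0.1) minus the gene's mean over all libraries; red is higher and blue lower. Single animals stand out across many rows, among them replicate 4 of HFD F, replicate 3 of HFD M and replicate 6 of CD M and of HFD+E2 M.

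Animals within a group differed over many of these genes at once. Replicate 3 of HFD M was the highest of all 30 libraries for 8 genes (Gbp2, Gbp3, Gbp7, Ifi44, Ifit3, Igtp, Iigp1 and Rsad2) and the highest of its group for 21. Replicate 4 of HFD F was the highest of its group for 20 genes, replicate 6 of CD M for 23 and replicate 6 of HFD+E2 M for 17. At the other end, replicate 5 of HFD M and replicate 1 of HFD F were each the lowest of their group for 18 genes. The mean log2 CPM over the 40 genes ran from 2.17 in replicate 5 of HFD M to 3.24 in replicate 4 of HFD F, and the groups overlapped on this measure. The GTPase Iigp1, which attacks the vacuoles of intracellular parasites, differed widely between animals of 1 group. It was at 33.6 CPM in replicate 3 of HFD M, where the group's lowest animal had 3.46 CPM and its median was 5.71 CPM.

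In the comparisons that follow, a gene passed the threshold when its log2 fold change by edgeR was beyond 0.4 in either direction and its p-value, before adjustment, was under 0.05, and adjusted p-values are over all genes tested. Over the 5 comparisons of 2 groups, 15 of the 40 genes passed in at least 1 and 25 passed in none. Of all tested genes, 2.9% to 9.15% passed in each single comparison. Their share over the 5 together was not counted, so the 15 are not a result about the list. Oasl2 passed in 4, and Irf7, Rtp4 and Oas2 in 3 each. The comparisons share groups, so that their counts are not independent of each other.

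**Figure D2:**
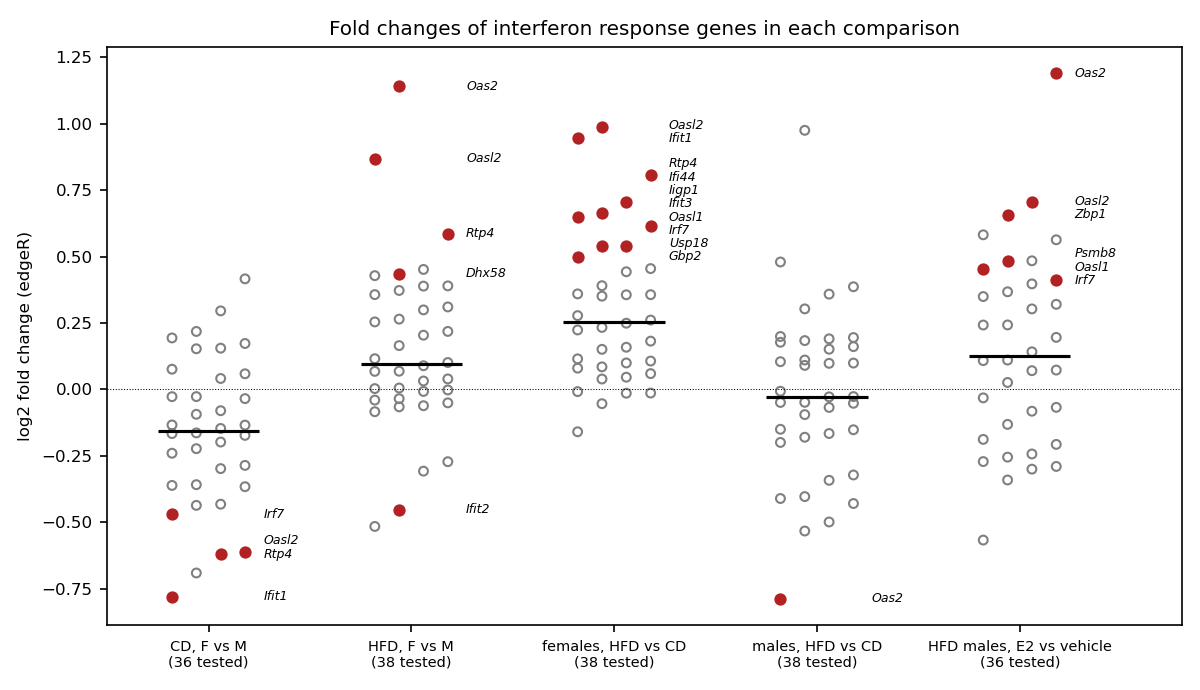
Log2 fold change (edgeR) of each tested interferon response gene in the 5 comparisons; filled red points with names passed the threshold, open points did not, and the black bar is the median. The median is highest for HFD against CD in females, at 0.26, and lowest for females against males on CD, at -0.16.

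On CD, interferon response genes that differed between the sexes were lower in females. Irf7, Ifit1, Oasl2 and Rtp4 were lower, none was higher, and Irf7 was the 1 gene that also passed with an adjusted p-value. These were 4 of 36 tested members (11.1%), where 9.15% of all tested genes passed, 2.94% as higher and 6.21% as lower in females. The median log2 fold change, females against males, was -0.16 over the members and 0.01 over all genes, and -0.08 over the members without replicate 6 of CD M. A member share near that of all genes is not a result about the list, and the single genes are described for themselves.

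Irf7 ranged from 15.1 to 19.9 CPM in CD F, with a median of 17.2 CPM, and from 20.9 to 28.4 CPM in CD M, with a median of 22.0 CPM. Every CD female was thus below every CD male. The log2 fold change was -0.47 ± 0.11 (SE; edgeR, adjusted p = 0.0232; 2.92% of all genes passed with an adjusted p-value). Leaving out any 1 of the 12 libraries kept the unadjusted call, while the adjusted p-value rose past 0.05 without replicate 3 of CD F or replicates 2 or 4 of CD M. Irf7 overlaps the gene Phrf1 on the opposite strand. The strand setting of the counting is not given in the sources used here, so that reads of the 2 genes may not have been told apart. Phrf1, with a mean of 590 counts against 268 for Irf7, had a log2 fold change of 0.01 here (adjusted p = 0.983), 0.28 between the sexes on HFD (adjusted p = 0.872), 0.03 with HFD in females (adjusted p = 0.999), -0.24 with HFD in males (adjusted p = 0.832) and 0.23 with E2 (adjusted p = 0.506), with a sex by diet difference of 0.27 (adjusted p = 0.792), and passed in none.

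Rtp4 ranged from 1.56 to 2.91 CPM (median 2.10 CPM) in CD F and from 2.61 to 3.96 CPM (median 3.31 CPM) in CD M, a log2 fold change of -0.62 ± 0.19 (SE; adjusted p = 0.0965). Oasl2, an OAS-like protein with antiviral activity, ranged from 4.36 to 7.87 CPM (median 5.61 CPM) in CD F and from 5.72 to 13.4 CPM (median 8.41 CPM) in CD M, a log2 fold change of -0.61 ± 0.21 (adjusted p = 0.146). For both genes the ranges of the sexes overlapped, but the calls were kept without any 1 library. Ifit1, which binds viral RNA that lacks host cap marks, ranged from 1.63 to 2.36 CPM in CD F and from 1.79 to 7.25 CPM in CD M (medians 2.08 and 2.67 CPM). The females formed a narrow range at the lower end of the wide range of the males. The log2 fold change was -0.78 ± 0.32 (adjusted p = 0.242), and it was between -0.67 and -0.46 without replicate 4 or replicate 6 of CD M, either of which ended the call.

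Markers of other cell types moved with this comparison. All 6 smooth muscle genes checked were lower in CD females, such as Actg2 (log2 fold change -0.95, adjusted p = 0.00221), and their summed level ranged from 5307 to 8158 CPM in CD F and from 6921 to 12430 CPM in CD M. With a smooth muscle score in the fit, none of the 4 interferon response genes passed, the log2 fold change of Irf7 was -0.27 (adjusted p = 0.662), and 3 other members, Ifit3b, Igtp and Tap1, passed instead. In that fit 1063 of 14922 genes passed. Of 5 endothelial genes, 3 were lower in females, and 2 of 5 pan-leukocyte genes and 4 of 7 B cell genes were higher. The summed level of the B cell genes ranged from 26.3 to 112.5 CPM in CD F and from 1.94 to 75.3 CPM in CD M, and with a B cell score in the fit Irf7 had a log2 fold change of -0.45 (adjusted p = 0.232) and Ifit1 and Oasl2 did not pass. The part of these cell types in the result was not tested further.

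On HFD, the members that differed between the sexes were mostly higher in females: Oas2, Oasl2, Rtp4 and Dhx58 were higher in females and Ifit2 was lower. These were 5 of 38 tested members (13.2%), where 3.09% of all tested genes passed, 2.01% as higher and 1.08% as lower in females. No member passed with an adjusted p-value by edgeR (6 had an unadjusted p-value under 0.05) or by DESeq2, where 0.0988% of all genes did by edgeR and 50 of 28040 by DESeq2. The median log2 fold change was 0.10 over the members and 0.01 over all genes. It rested on single animals: it was 0.01, with 19 members positive and 19 negative, without replicate 4 of HFD F, 0.04 without replicate 5 of HFD M, 0.06 without replicate 2 of HFD F, 0.15 without replicate 3 of HFD F and 0.25 without replicate 3 of HFD M.

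Markers of other cell types also differed between the sexes on HFD. Ly6c2, a monocyte marker, ranged from 1.96 to 5.01 CPM in HFD F and from 0.266 to 1.37 CPM in HFD M (log2 fold change 2.60, adjusted p = 0.00210), and Cd14 (0.42, adjusted p = 0.872), the adipocyte gene Cfd (2.02, adjusted p = 0.781) and Krt14 (4.15, adjusted p = 0.872) also were higher in females. Of the 7 macrophage and monocyte genes, only Ly6c2 and Cd14 passed, 5 had positive and 2 negative values. The summed level of the 7 overlapped, at 108.5 to 182.1 CPM in HFD F and 87.8 to 161.5 CPM in HFD M. The smooth muscle gene Actg2 was lower (-0.54, adjusted p = 0.746), and all 6 smooth muscle genes had negative values. Their summed level ranged from 5759 to 9930 CPM in HFD F and from 6756 to 11730 CPM in HFD M. The part of these cell types was not tested beyond the scores given with the values of the members.

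Oas2 ranged from 0.882 to 3.26 CPM (median 1.17 CPM) in HFD F and from 0.247 to 1.02 CPM (median 0.776 CPM) in HFD M, a log2 fold change of 1.14 ± 0.40 (SE; adjusted p = 0.872). Only the lower end of the female range overlapped the males. The counts were few, at 9 to 41 per library in HFD F and 3 to 12 in HFD M. Without replicate 4 of HFD F, the animal at 3.26 CPM, the log2 fold change was 0.74 and the call was lost. Oasl2 ranged from 4.91 to 22.5 CPM (median 10.5 CPM) in HFD F and from 3.79 to 10.4 CPM (median 6.32 CPM) in HFD M, a log2 fold change of 0.87 ± 0.36 (adjusted p = 0.872). Rtp4 ranged from 1.53 to 5.17 CPM (median 4.10 CPM) in HFD F and from 1.79 to 3.90 CPM (median 2.29 CPM) in HFD M, a log2 fold change of 0.59 ± 0.27 (adjusted p = 0.872). The lowest animal for Rtp4 was thus a female, replicate 1, while the other 5 females were above the male median. Dhx58, a regulator of the RNA sensors, ranged from 2.91 to 5.39 CPM in HFD F and from 2.22 to 3.68 CPM in HFD M (medians 4.23 and 3.18 CPM), a log2 fold change of 0.44 ± 0.19 (adjusted p = 0.872). Each of these 3 calls was lost without any of several single libraries: 6 for Oasl2 (HFD F 4 and 6 and HFD M 1, 4, 5 and 6; then 0.57 to 0.87), 9 for Rtp4 (HFD F 3 to 6 and HFD M 1, 2 and 4 to 6; then 0.47 to 0.62) and 7 for Dhx58 (HFD F 2, 4 and 5 and HFD M 1 and 3 to 5; then 0.35 to 0.44).

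Ifit2, a relative of Ifit1 that is known for apoptosis and antiviral effects, was lower in HFD females. It ranged from 5.60 to 8.12 CPM (median 6.51 CPM) in HFD F and from 6.63 to 11.2 CPM (median 9.17 CPM) in HFD M, a log2 fold change of -0.45 ± 0.16 (adjusted p = 0.872). Without replicate 1 or replicate 3 of HFD M it was between -0.39 and -0.38, inside the limit of 0.4, so that the call was lost on size. Irf7, which separated the sexes on CD, had wide ranges on HFD. It ran from 13.8 to 35.8 CPM (median 22.9 CPM) in HFD F and from 13.7 to 27.6 CPM (median 22.0 CPM) in HFD M. The log2 fold change was 0.22 ± 0.25 (adjusted p = 0.896). Without the 6 libraries with squamous epithelium genes it was -0.06, and only Oasl2 (0.98) passed among the members. That fit lacked 4 of the 6 HFD females and 2 of the 6 HFD males, so that calls may also be lost to fewer animals. With a squamous epithelium score in the fit, only Oas2 passed, and with a B cell score only Oas2 and Ifit2. Of all genes, 337 of 15756 passed without the 6 libraries, 541 of 15179 with the squamous score and 505 of 15179 with the B cell score.

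With HFD in females, 10 interferon response genes passed the threshold, the most of the 5 comparisons in these fits. E2 had as many or more under other settings: 8 and 8 by DESeq2, 6 and 6 with the squamous epithelium score, and 8 for HFD in females against 9 for E2 with all 30 libraries in 1 fit. Of all genes, for HFD in females and E2 in turn, 1018 of 27997 and 1184 of 27547 passed by DESeq2. With the squamous score 329 of 15061 and 505 of 15010 passed, and in the 1 fit 705 and 1143 of 16060. Compared with CD females, Irf7, Usp18, Ifit1, Ifit3, Oasl1, Oasl2, Ifi44, Rtp4, Gbp2 and Iigp1 were higher in HFD females, and none was lower. These were 10 of 38 tested members (26.3%), where 3.67% of all tested genes passed, 2.95% as higher and 0.724% as lower. The fold change was positive for 33 of the 38, with a median log2 fold change of 0.26 over the members and 0.00 over all genes. Without replicate 4 of HFD F the median was 0.15, with 29 positive. With adjusted p-values, 0 members passed by edgeR, although 12 had an unadjusted p-value under 0.05, and 1, Ifit1, passed by DESeq2. Of all genes, 0.0199% passed in this way by edgeR and 214 of 27997 by DESeq2. By role, 2 of 4 tested IFIT genes, 2 of 5 OAS family genes, 2 of 6 GTPases, 2 of 11 other effectors, 1 of 4 signalling genes and the deconjugase Usp18 passed, and 0 of 4 sensors and 0 of 3 antigen processing genes did.

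Ifit1 ranged from 1.63 to 2.36 CPM (median 2.08 CPM) in CD F and from 2.65 to 6.44 CPM (median 3.58 CPM) in HFD F. The 2 diets did not overlap. The log2 fold change was 0.94 ± 0.22 (SE; edgeR, adjusted p = 0.410; DESeq2, adjusted p = 0.0267). Over the alternative edgeR fits other than those that leave out 1 library, its adjusted p-value was 0.313 at the lowest. Ifit3, a relative of Ifit1, ranged from 1.47 to 4.08 CPM (median 2.81 CPM) in CD F and from 3.25 to 5.49 CPM (median 4.65 CPM) in HFD F, a log2 fold change of 0.65 ± 0.21 (adjusted p = 0.559). The ranges overlapped little, and both calls were kept without any 1 of the 12 libraries.

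The neighbours Oasl1 and Oasl2, whose promoter stretches are shown above, both were higher. Oasl1, known as a translational inhibitor of Irf7, ranged from 6.34 to 11.8 CPM (median 7.80 CPM) in CD F and from 10.2 to 16.2 CPM (median 12.3 CPM) in HFD F, a log2 fold change of 0.61 ± 0.17 (adjusted p = 0.444). Oasl2 ranged from 4.36 to 7.87 CPM (median 5.61 CPM) in CD F and from 4.91 to 22.5 CPM (median 10.5 CPM) in HFD F, a log2 fold change of 0.99 ± 0.33 (adjusted p = 0.561). The HFD females were spread more widely than the CD females, with replicate 4 highest for both genes. Rtp4 ranged from 1.56 to 2.91 CPM (median 2.10 CPM) in CD F and from 1.53 to 5.17 CPM (median 4.10 CPM) in HFD F, a log2 fold change of 0.81 ± 0.26 (adjusted p = 0.531). For Rtp4, 5 HFD females were above all CD females and replicate 1 was below them. The calls of these 3 genes were kept without any 1 library.

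Irf7 ranged from 15.1 to 19.9 CPM (median 17.2 CPM) in CD F and from 13.8 to 35.8 CPM (median 22.9 CPM) in HFD F. HFD females were found below, within and above the CD range. The log2 fold change was 0.54 ± 0.20 (adjusted p = 0.650), and without replicate 4 of HFD F it was 0.40 and did not pass. Gbp2 ranged from 23.3 to 30.6 CPM (median 25.6 CPM) in CD F and from 21.3 to 58.2 CPM (median 35.8 CPM) in HFD F, a log2 fold change of 0.50 ± 0.18 (adjusted p = 0.650), or 0.31 without the same animal, which did not pass. For both genes, 1 animal therefore decided the call.

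The remaining 3 calls were weaker. Iigp1 ranged from 3.32 to 5.56 CPM (median 4.91 CPM) in CD F and from 3.92 to 12.6 CPM (median 6.53 CPM) in HFD F, a log2 fold change of 0.66 ± 0.27 (adjusted p = 0.718). Its call was lost without CD F 6, HFD F 2 or HFD F 4 (then 0.44 to 0.58). Ifi44, an antiviral protein of the cytoplasm, ranged from 0.586 to 1.20 CPM in CD F and from 0.616 to 2.15 CPM in HFD F, with medians of 0.789 and 1.40 CPM (log2 fold change 0.71 ± 0.30, adjusted p = 0.789), and its call was lost without CD F 1, 4, 5 or 6 or HFD F 4 or 6 (then 0.53 to 0.69). Usp18, which also dampens the receptor for type I interferon, ranged from 0.586 to 0.960 CPM in CD F and from 0.882 to 1.26 CPM in HFD F, with medians of 0.701 and 1.05 CPM (0.54 ± 0.24, adjusted p = 0.861), and its call was lost without CD F 1, 4, 5 or 6 or HFD F 1, 2, 3 or 6 (then 0.48 to 0.56). These low levels correspond to about 10 counts per library.

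Without the 4 HFD females with squamous epithelium genes, which leaves 2 animals in that group, 8 members passed, all higher: Gbp2, Ifi44, Ifit1, Iigp1, Oasl2 and Rtp4 of those above, and Irf1 and Gbp7. In that fit 373 of 15827 genes passed, 189 of them as higher. With a squamous epithelium score in the fit, 6 passed: Ifit1, Ifi44, Oasl2 and Rtp4, with Irf1 and Gbp7, where 329 of 15061 genes did. Irf7 was at 0.30 in the first of these fits and at 0.42 in the second, and passed in neither. A monocyte marker, Ly6c2, was higher in HFD females (log2 fold change 2.77, adjusted p = 0.00272), from 0.171 to 1.02 CPM in CD F and 1.96 to 5.01 CPM in HFD F. The summed level of all 7 macrophage and monocyte markers ranged from 103.7 to 179.7 CPM in CD F and from 108.5 to 182.1 CPM in HFD F, and the other 6 did not pass. The part of monocytes in the result was not tested.

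In males on HFD, 1 of 38 tested members passed against CD (2.63%), where 2.9% of all tested genes passed, 1.25% as higher and 1.64% as lower. The member was Oas2, lower in HFD males. No member passed with an adjusted p-value by edgeR or DESeq2, and 1 had an unadjusted p-value under 0.05. Of all genes, 0 of 14991 passed with an adjusted p-value by edgeR and 25 of 27820 by DESeq2. The fold change was positive for 17 members and negative for 21, and the median log2 fold change was -0.03 over the members and -0.01 over all genes. Over the members it was -0.10 without replicate 3 of HFD M and 0.06 without replicate 6 of CD M.

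Oas2 ranged from 0.684 to 2.03 CPM (median 1.05 CPM) in CD M and from 0.247 to 1.02 CPM (median 0.776 CPM) in HFD M, a log2 fold change of -0.79 ± 0.36 (SE; adjusted p = 0.823). Its counts were 7 to 21 per library in CD M and 3 to 12 in HFD M. The groups overlapped and the call was lost without CD M 3, 4, 5 or 6 or HFD M 2, 3 or 5 (then -0.82 to -0.58), by DESeq2, with all 30 libraries in 1 fit (where Iigp1 passed instead, as higher), with the squamous epithelium, smooth muscle or B cell score (Zbp1 passed with the last) and without replicates 2 and 4 of HFD M. Next by p-value were Oasl2, with a log2 fold change of -0.50 ± 0.25 (adjusted p = 0.826), and Zbp1, a sensor of Z-form nucleic acids that can start cell death, with -0.53 (adjusted p = 0.826). Irf7 had a log2 fold change of -0.15 ± 0.17 (adjusted p = 0.888). Its male ranges, 20.9 to 28.4 CPM on CD and 13.7 to 27.6 CPM on HFD, had the same median of 22.0 CPM. Iigp1 had the largest positive value, 0.97 ± 0.50 (adjusted p = 0.826), with replicate 3 of HFD M at 33.6 CPM and the other 5 HFD males at 3.46 to 10.4 CPM.

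Whether HFD acted differently in the sexes was tested directly, as the interaction of sex and diet over the 24 vehicle libraries. The response was larger in females for 6 members and smaller for none: Rtp4, Oasl2, Oasl1, Irf7, Oas2 and Irf9. These were 6 of 38 tested (15.8%), where 5.18% of all tested genes passed, 3.71% in this direction and 1.47% in the other. With adjusted p-values, 0 members passed by edgeR (6 had an unadjusted p-value under 0.05) and 0 by DESeq2. Of all genes, 0 of 15800 passed in this way by edgeR and 3 of 29643 by DESeq2. The median difference in log2 fold change was 0.17 over the members and 0.01 over all genes. Over the members it moved both ways with single animals. It was 0.37 without replicate 3 of HFD M, 0.26 without replicate 2 of CD M and 0.25 without replicate 5 of CD M. It was 0.12 without replicate 2 or replicate 4 of HFD F, and 0.13 without replicate 6 of CD M.

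For Rtp4 the log2 fold change was 0.81 in females and -0.40 in males, a difference of 1.20 ± 0.33 (SE; adjusted p = 0.410). For Oasl2 it was 0.99 in females and -0.50 in males, a difference of 1.48 ± 0.43 (adjusted p = 0.503). For Oasl1 it was 0.61 and -0.05, a difference of 0.66 ± 0.24 (adjusted p = 0.630). These 3 genes thus rose with HFD in females and did not pass in males, and their interaction was kept without any 1 of the 24 libraries. Without the 6 libraries with squamous epithelium genes, Rtp4 (1.21) and Oasl2 (1.60) still passed, with Psmb8, and Oasl1 (0.53) did not. This left out 4 of the 6 HFD females and 2 of the 6 HFD males, so that few animals remained. In that fit 332 of 16564 genes passed. Irf7 had a difference of 0.68 ± 0.27 (adjusted p = 0.665), or 0.55 without replicate 4 of HFD F and 0.41 without the libraries with squamous epithelium genes, neither of which passed. Irf9 overlaps Rnf31 on the same strand and had a difference of 0.44 ± 0.20 (adjusted p = 0.696), lost without CD F 6, CD M 4 or 6, HFD F 3 or 4 or HFD M 4 or 6 (then 0.34 to 0.41). Oas2 had a difference of 1.24 ± 0.53 (adjusted p = 0.692), lost without CD M 6, HFD F 4 or HFD M 5 (then 0.84 to 1.06). With a smooth muscle score in the fit 11 of 38 members passed, all in the same direction, where 385 of 15800 genes passed in either direction. Irf7 (0.51) was not among the 11. Of the cell type markers, Acta2 of smooth muscle (difference 0.50, adjusted p = 0.727) and Ly6c2 of monocytes (1.73, adjusted p = 0.607) passed in the interaction, and all 6 smooth muscle genes had positive values. Of the 7 macrophage and monocyte genes, 4 had positive and 3 negative values.

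**Figure D3:**
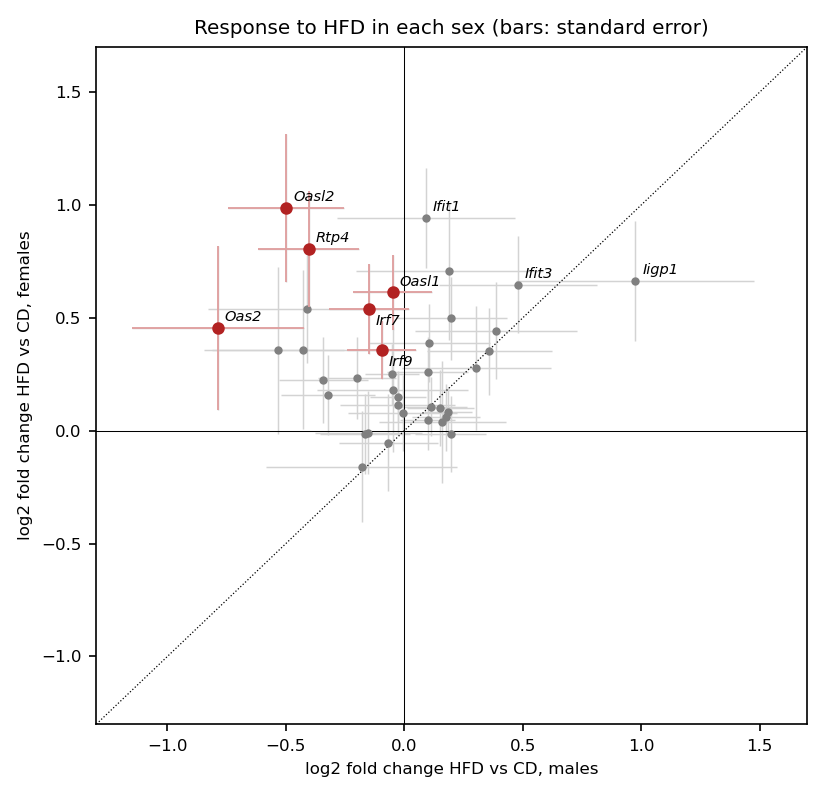
Log2 fold change of each tested member for HFD against CD in males (x axis) and in females (y axis), with bars of 1 standard error and the dotted line of equal response. The 6 members whose response differed between the sexes (red) lie above the line and left of 0 on the male axis, while Ifit3 and Iigp1 lie closer to the line.

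With E2 in HFD males, 6 members were higher. Irf7, Zbp1, Oas2, Oasl1, Oasl2 and Psmb8 were higher in HFD+E2 M than in HFD M, and none was lower. These were 6 of 36 tested members (16.7%), where 5.87% of all tested genes passed, 2.63% as higher and 3.24% as lower. With adjusted p-values, 0 members passed by edgeR (9 had an unadjusted p-value under 0.05) and 0 by DESeq2. Of all genes, 0.00666% passed in this way by edgeR and 50 of 27547 by DESeq2. The fold change was positive for 23 and negative for 13, with a median log2 fold change of 0.13 over the members and 0.00 over all genes. That median rested on single animals: it was between 0.05 and 0.07 without replicate 4 or 5 of HFD M or replicate 5 or 6 of HFD+E2 M, 0.19 without replicate 3 of HFD+E2 M and 0.24 without replicate 3 of HFD M. This comparison shares the HFD males with those of the sexes on HFD and of the diets in males.

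Oas2 ranged from 0.247 to 1.02 CPM (median 0.776 CPM) in HFD M and from 0.535 to 2.80 CPM (median 1.52 CPM) in HFD+E2 M, a log2 fold change of 1.19 ± 0.43 (SE; adjusted p = 0.456). The ranges overlapped, and the call was kept without any 1 library. These levels rest on few reads, 3 to 12 counts per library in HFD M (median 8) and 7 to 25 in HFD+E2 M. Oasl2 ranged from 3.79 to 10.4 CPM (median 6.32 CPM) in HFD M and from 5.47 to 17.5 CPM (median 11.1 CPM) in HFD+E2 M, a log2 fold change of 0.71 ± 0.29 (adjusted p = 0.461), lost without HFD M 5 or 6 or HFD+E2 M 2 (then 0.52 to 0.61). Oasl1 ranged from 7.14 to 13.1 CPM (median 9.60 CPM) in HFD M and from 10.9 to 17.6 CPM (median 13.1 CPM) in HFD+E2 M. Of the 6 HFD males, 4 were below all E2 males. The log2 fold change was 0.45 ± 0.16 (adjusted p = 0.456), lost without HFD M 1 or HFD+E2 M 2 (then 0.37 to 0.38).

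Irf7 ranged from 13.7 to 27.6 CPM (median 22.0 CPM) in HFD M and from 22.6 to 34.6 CPM (median 27.4 CPM) in HFD+E2 M. The 3 lowest HFD males were below all E2 males, and the other 3 were within their range. The log2 fold change was 0.41 ± 0.18 (adjusted p = 0.476), close to the limit of 0.4, and the call was lost without HFD M 1, 2 or 3 or HFD+E2 M 1, 2 or 3 (then 0.31 to 0.41). Zbp1 ranged from 1.90 to 3.99 CPM (median 3.21 CPM) in HFD M and from 2.37 to 7.61 CPM (median 4.82 CPM) in HFD+E2 M, a log2 fold change of 0.66 ± 0.26 (adjusted p = 0.461), lost without HFD M 5 or HFD+E2 M 1 (then 0.50 to 0.55). Psmb8, a subunit of the immunoproteasome that cuts peptides for presentation, ranged from 5.01 to 10.7 CPM (median 9.03 CPM) in HFD M and from 9.67 to 16.0 CPM (median 11.4 CPM) in HFD+E2 M. Its log2 fold change was 0.48 ± 0.19 (adjusted p = 0.461), lost without HFD M 1 or HFD+E2 M 6 (then 0.37 to 0.38). For each of these 6 genes, at least 5 of the 6 E2 males were above the vehicle median, and the groups overlapped.

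Ifit1 ranged from 1.90 to 6.47 CPM in HFD M and from 2.39 to 5.80 CPM in HFD+E2 M, with a log2 fold change of 0.07 ± 0.31 (adjusted p = 0.936), and Gbp2 had a log2 fold change of -0.03 ± 0.29 (adjusted p = 0.973). Without the 2 HFD males with squamous epithelium genes, Oas2, Oasl1, Oasl2, Zbp1 and Psmb8 passed and Irf7 did not (0.37). In that fit 530 of 15368 genes passed. Siglech, a marker of plasmacytoid dendritic cells, the cells that make most type I interferon in many infections, was at 1.60 to 2.42 CPM in HFD M and at 1.53 to 3.63 CPM in HFD+E2 M (log2 fold change 0.54, adjusted p = 0.485). Of the 4 tested genes of that list, Klk1 also was higher (0.69, adjusted p = 0.456), while Tcf4 (-0.09, adjusted p = 0.687) and Pacsin1 (-0.42, adjusted p = 0.590) had negative values and did not pass. Klk1 also passed as higher in females on CD and with HFD in males, so its call was not particular to E2. Whether Klk1 reads these cells in unsorted colon was not tested. The summed level of the list ranged from 302.9 to 492.5 CPM in HFD M and from 411.5 to 853.4 CPM in HFD+E2 M, of which Klk1 had 152.0 to 338.4 CPM and 268.2 to 715.2 CPM. Ly6c2 was higher with E2 as well (1.35, adjusted p = 0.455). Of the 7 macrophage and monocyte genes it was the 1 that passed, and 5 had positive and 2 negative values. The part of these cell types in the result was not tested.

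**Figure D4:**
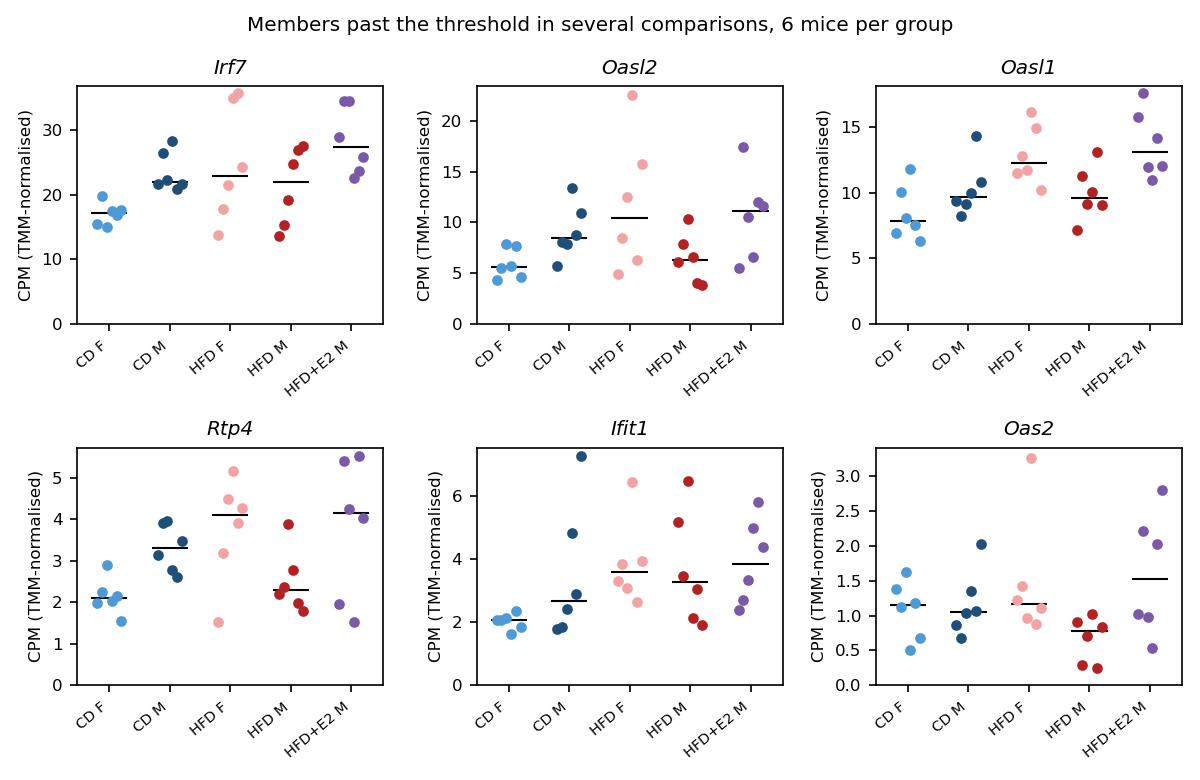
TMM-scaled CPM of Irf7, Oasl2, Oasl1, Rtp4, Ifit1 and Oas2 in each animal (points) of the 5 groups, with the median as a bar and the axis from 0. For Irf7 and Ifit1 the CD females form a narrow low range, and for Oasl1 the HFD females and the HFD+E2 males have the highest medians, 12.3 and 13.1 CPM.

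Members with too few counts were compared on log2 CPM by exact permutation of the 12 animals (two-sided), whose smallest p-value for 6 animals against 6 is 0.00216. Isg15 and Oas3 were below the count filter in each comparison of 2 groups, Usp18 and Ifi44 for the sexes on CD, and Usp18 and Mx2 for E2. Over these 14 tests the lowest p-value was that of Isg15 between the sexes on HFD (difference in mean log2 CPM 1.11, exact permutation test, p = 0.0281, unadjusted). Isg15 was at 0.294 to 1.20 CPM (median 0.606 CPM) in HFD F and at 0 to 0.737 CPM (median 0.200 CPM) in HFD M. The groups overlapped, and a median of 4 counts per library leaves little precision. Oas3 had differences of 0.849, 0.833 and 1.003 for HFD females against HFD males, HFD against CD in females and E2 against vehicle, with exact permutation p-values of 0.0823, 0.0931 and 0.0866.

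The further genes of the pathway passed in smaller shares than the members. Of 86 such genes in the count table, none of the 6 receptors, 8 kinases and factors or 4 tested inhibitors passed in any comparison by edgeR. On CD, 3 of 70 tested passed between the sexes, against 9.15% of all genes: Ifitm3, which restricts virus entry, was lower in females (-0.48 ± 0.17, SE, adjusted p = 0.159), and Slfn2 (0.50, adjusted p = 0.280) and Isg20 (0.42, adjusted p = 0.273) were higher. With HFD in females 4 of 71 passed, against 3.67% of all genes, and all were higher: Lgals3bp (0.47 ± 0.16, adjusted p = 0.587), Gbp5 (0.55 ± 0.21, adjusted p = 0.650), Gbp9 (0.42 ± 0.17, adjusted p = 0.737) and Phf11d (0.59 ± 0.20, adjusted p = 0.561). With HFD in males 1 of 71 passed, against 2.9% of all genes, Slfn2 (0.44, adjusted p = 0.823). Between the sexes on HFD 1 of 72 passed, against 3.09% of all genes, Lgals3bp (0.44, adjusted p = 0.872), and with E2 1 of 72 passed, against 5.87%, Ticam1, an adaptor of Toll-like receptors (0.41, adjusted p = 0.461). With E2, 53 of the 72 had positive values and their median log2 fold change was 0.125, close to the 0.13 of the members. The response to HFD differed between the sexes for Lgals3bp (difference 0.66, adjusted p = 0.603), Pml (0.42, adjusted p = 0.694) and Slfn2 (-0.75, adjusted p = 0.694), 3 of 72 tested, against 5.18% of all genes. None of these passed with an adjusted p-value.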

How the data were processed

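Total RNA from the colon of each mouse was made into stranded libraries after removal of ribosomal RNA. Per the labels, the authors used bcl2fastq 2.19.1.403, Trim Galore, STAR on mm10, featureCounts and StringTie. The deposited table holds raw counts of reads per gene, and the deposited abundance tables hold TPM from StringTie, used as given for levels between genes. All 30 count columns were matched to their samples by name, and no 2 were identical. Reads have no molecular identifiers. The standard errors come from the edgeR fits over the mice, so they cover the spread between animals as well as counting error.

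Each comparison of 12 libraries, and the interaction over 24, was fitted across all genes with edgeR 4.0.16 in R 4.3.3 (filterByExpr, TMM, robust quasi-likelihood F-test). The threshold follows the study, with its p-value read as unadjusted. Adjusted p-values are Benjamini-Hochberg over all genes tested. Every member past the threshold is given with its values, or the 3 of lowest p where fewer passed, and Irf7 in each comparison, as the study's main text names it. The study's supplement also lists Irf7, Ifit1, Ifit3, Iigp1 and Oasl1 among its genes regulated by HFD in females. Members and lists were chosen with earlier results of these data known. Alternatives were DESeq2 1.42.0, its size factors, no filter, all libraries in 1 fit, the replicate number as a block, scores of marker genes as covariates, TPM with 0.1 or 1 added, and each library left out. Leaving out the 6 libraries with squamous scores over 2 was chosen after seeing the data. The fits were tested on simulated data. Promoter windows and gene positions came from RefSeq and GENCODE annotation of GRCm38. Mice were taken as replicates, 6 per group.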

Additional observations from a re-analysis of the deposited data

Results flagged for a closer look

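In groups of 6 animals, a value was looked at again where it stood apart from the other 5 by more than Dixon's critical value allows, as a share of the group's range on a log2 scale. Of 200 groups of gene and condition examined, 11 had such a value, and chance gives about 1 in 20. In CD F, Irf9 was lowest in replicate 6, at 14.4 CPM against 17.4 to 19.2 CPM in the others, Zbp1 was highest in replicate 1, at 6.34 against 2.40 to 2.85 CPM, and the GTPase Igtp was highest in the same animal, at 7.52 against 4.22 to 5.12 CPM. In HFD F, replicate 4 was highest for Oas2, at 3.26 against 0.882 to 1.42 CPM, and for Gbp3, at 13.4 against 7.31 to 8.82 CPM. In HFD M, replicate 3 was highest for Gbp3, at 20.4 against 6.43 to 8.66 CPM, and for Gbp7, at 36.7 against 16.2 to 21.7 CPM. Low values in HFD M were those of Usp18 in replicate 5, at 0.0824 against 0.683 to 1.15 CPM, and of Bst2 in replicate 4, at 0.185 against 1.37 to 2.32 CPM. In HFD+E2 M, Gbp2 was highest in replicate 6, at 65.9 against 28.5 to 33.4 CPM, and Mx2 was lowest in replicate 2, at 0.1003 against 0.684 to 1.12 CPM. The low values of Usp18, Bst2 and Mx2 rest on a few counts.

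The response to HFD differed between females and males by the interaction test in edgeR (unadjusted p-values) for Oasl2, by 1.48 on the log2 scale, for Oas2 by 1.24, for Rtp4 by 1.20, for Irf7 by 0.68, for Oasl1 by 0.66 and for Irf9 by 0.44, each larger in females. Their standard errors and p-values are given with the comparison, and none passed with an adjusted p-value.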

How the results depend on the processing

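Among the values of single genes, 731 kept their direction and side of the threshold under an alternative, 138 lost the call, 7 gained it, 7 moved on the log2(TPM + 1) scale and 1 turned: Irf7 for the sexes on HFD was -0.0632 without the libraries with squamous epithelium genes. The adjusted call between the sexes on CD (1 gene) went to 0 with all 30 libraries in 1 fit, with the smooth muscle score and with the B cell score. For the sexes on HFD, 5 members became 1 with the squamous score, 2 with the B cell score and 1 without the squamous libraries. For HFD in females, 10 became 6 with the squamous score, and the adjusted count of 0 became 1 by DESeq2. For HFD in males, 1 became 0 by DESeq2, with the squamous or the smooth muscle score and without the squamous libraries, and 3 without a filter. The interaction's 6 became 11 with the smooth muscle score and 3 without the squamous libraries. Of all genes, 385 of 15800 and 332 of 16564 passed in these fits, against 818 of 15800 in the main fit. The cause was not tested. Leaving out each library in turn gave 3 to 7 members (7 without CD F 1) and 0 to 2 adjusted for the sexes on CD, 1 to 7 for the sexes on HFD (1 without HFD F 4 or HFD M 1, 2 without HFD M 4, 3 without HFD F 5 or HFD M 5), 6 to 11 for HFD in females (6 without HFD F 4), 0 to 3 for HFD in males (0 without CD M 4, 2 without CD M 1 or HFD M 6, 3 without HFD M 3), 3 to 9 for E2 (3 without HFD+E2 M 2), and 3 to 11 for the interaction (3 without HFD F 4, 11 without HFD M 3). The median log2 fold change for HFD in males lay between -0.100 and 0.065 and had no stable sign. The replicate number as a block gave 4, 4, 8, 1, 7 and 6 members in the order of the report's comparisons with the interaction last. The labels tie same-numbered animals by that number alone, but within each group it rises with the sample number of the library. Whether same-numbered animals were processed together is not given. With the block, the genes of the whole table that passed with an adjusted p-value went from 435 to 941 for the sexes on CD and from 15 to 10 for the sexes on HFD. Correlations of same-numbered animals ran from -0.22 to 0.47, and all pairs were over 0.1 in no comparison. The sexes on CD and HFD in males each had 5 of 6 pairs over 0.1. Counted over both groups, 6 animals correlated best with their own number for the sexes on CD. The other comparisons had 1 to 5 such animals. At a median of 10 or fewer counts, counting error was widest for Isg15, Oas3, Mx2 and Usp18.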
